A study of Mus musculus with 7 samples.

Results

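The genes described here are 9 genes of hepatic glucose metabolism, Pck1, G6pc, Fbp1, Pcx, Ppargc1a, Pklr, Slc2a2, Gys2 and Pygl, out of 21536 protein-coding genes with a known position and strand. They were chosen by name for their metabolic roles. The values that follow are the binding peaks of 3 nuclear receptors whose midpoint lay inside the gene span or within 50 kb of it, each with its distance from the gene start and its place in its own peak list. Chromatin immunoprecipitation and sequencing had been carried out in the liver for the α and β forms of the retinoic acid receptor (RARα and RARβ) and for their partner, the α form of the retinoid X receptor (RXRα). The mice were wild-type male C57BL/6 animals of 3 months, on a control diet or on a diet with retinoic acid (RA). Feeding lasted 1 day according to the labels and longer according to the published methods, which leaves its length unsettled. Each combination of receptor and diet was 1 library, the number of animals behind a library is not given in the sources used here, and 1 input library of total chromatin was not used here as a list. Without replicates, every difference between diets or receptors below describes these libraries and has no test.

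The 6 lists held 245004 peaks in all, the fewest (14968) for RARβ and the most (61128) for RXRα, both under the control diet. RARα had 35521 peaks without RA and 44296 with it. In the RA diet the RARβ list had 29467 entries and the RXRα list 59624. Read totals are not in the lists. The published text gives a single one each for RXRα and RARα, does not say which diet it belongs to and lists none for the third receptor. The depth of the 6 libraries is therefore not known, and a longer list from a deeper library and a longer list from more binding cannot be told apart. The score of a peak comes from the peak caller and grows as the p-value falls, from a lowest value of 50 in the lists. Scores were not normalized between libraries. A peak is therefore placed by its rank, as the percentage of its own list counted from the top, so that a peak at 1% is among the highest-scoring peaks of that library.

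In the fasted liver, gluconeogenesis makes glucose from pyruvate, lactate and other precursors, and glycogen breakdown releases stored glucose; after a meal, glycolysis and glycogen synthesis run instead. RARs and RXRs are ligand-activated receptors of the nucleus. They bind DNA as pairs, typically at repeats of a short half-site, and RXRα also pairs with other hepatic receptors such as PPARα, LXR and FXR, so an RXRα peak alone does not name its partner. Pck1 and G6pc are textbook examples of liver genes that are switched by hormones and nuclear receptors, and Ppargc1a encodes the coactivator PGC-1α of the fasting response.

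Promoter letters are shown for 5 starts where receptor peaks were called, because these windows hold the letters that a start-proximal peak can cover. They are RefSeq sequences of GRCm38.p6, each the 250 bases before the annotated start, read along the gene's strand, and 8 of the 9 genes had an entry. Capitals mark half-sites on either strand, that is AGGTCA, or else GGGTCA, or else AGTTCA, or else GGTTCA.
G6pc, chr11:101367466-101367715, plus strand: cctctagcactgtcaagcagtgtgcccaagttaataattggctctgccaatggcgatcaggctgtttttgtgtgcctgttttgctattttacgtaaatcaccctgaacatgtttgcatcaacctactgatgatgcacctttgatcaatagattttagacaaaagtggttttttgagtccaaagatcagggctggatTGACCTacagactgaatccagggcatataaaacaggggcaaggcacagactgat
Slc2a2, chr3:28697653-28697902, plus strand: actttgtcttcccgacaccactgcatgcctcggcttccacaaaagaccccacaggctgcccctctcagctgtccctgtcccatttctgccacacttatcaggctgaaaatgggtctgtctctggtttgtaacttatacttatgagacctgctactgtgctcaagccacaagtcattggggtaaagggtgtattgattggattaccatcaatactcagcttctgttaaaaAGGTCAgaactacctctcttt
Pygl, chr12:70227684-70227933, minus strand: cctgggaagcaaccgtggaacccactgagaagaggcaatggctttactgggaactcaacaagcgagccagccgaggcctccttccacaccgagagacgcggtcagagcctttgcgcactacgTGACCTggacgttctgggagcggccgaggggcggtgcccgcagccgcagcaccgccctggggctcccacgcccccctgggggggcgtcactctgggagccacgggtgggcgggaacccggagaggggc
Pck1, chr2:173152823-173153072, plus strand: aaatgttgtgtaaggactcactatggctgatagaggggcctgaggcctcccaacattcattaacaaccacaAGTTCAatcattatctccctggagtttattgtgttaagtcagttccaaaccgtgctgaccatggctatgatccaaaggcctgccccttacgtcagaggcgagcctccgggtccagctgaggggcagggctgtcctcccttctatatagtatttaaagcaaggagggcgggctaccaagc
Pklr, inner start, chr3:89136373-89136622, plus strand: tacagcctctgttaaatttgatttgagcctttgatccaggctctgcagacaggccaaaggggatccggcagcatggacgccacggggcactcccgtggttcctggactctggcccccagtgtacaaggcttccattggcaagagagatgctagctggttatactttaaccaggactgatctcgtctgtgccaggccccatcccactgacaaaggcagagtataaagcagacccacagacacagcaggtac
The G6pc window held TGACCT, the reverse complement of AGGTCA, 54 bases before the start. Slc2a2 held AGGTCA 21 bases before its start, and Pygl held TGACCT 128 bases before its start. The Pck1 window held the spelling AGTTCA 179 bases before the start. The inner Pklr window held none of the 4 spellings. Over the 10 promoter entries of the 8 genes, 4 held AGGTCA on either strand, beside 14.0% of 32851 promoters of the same length, and 7 held any of the 4 spellings, beside 38.6% of all promoters. A repeat of 2 half-sites in the same direction with 1 to 5 bases between them, known as DR1 to DR5, was in 0 of the 10, beside 0.164%, 0.174%, 0.0396%, 0.0670% and 0.0883% of all promoters. These matches describe letters and not bound sites.

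All 9 genes had a peak of each receptor under each diet in their window. This is the common state in these lists, since a RARα peak was found for 83.7% (control) and 84.8% (RA) of all genes, a RARβ peak for 70.2% and 77.8%, and an RXRα peak for 83.7% and 84.3%. In the order control and RA, the windows held 77 and 80 peaks of RARα, 31 and 64 of RARβ and 113 and 113 of RXRα, or 478 in all. When every list was cut to the 14968 highest-scoring peaks, the length of the shortest, the RARβ counts were 31 and 38, those of RARα 26 and 30, and those of RXRα 42 and 39. Per gene, the median number of RXRα peaks was 12 under either diet, against 5 over all genes. The medians for RARα were 8 and 9, against 4 and 4 over all genes, and those for RARβ were 4 and 7, against 1 and 3. Per 100 kb of window, the median of the 9 genes was 5.65 RARα peaks under the control diet against 2.66 over all genes, 2.43 RARβ peaks against 0.957, and 8.17 RXRα peaks against 3.77. Under RA these densities were 5.98 against 3.07, 5.37 against 1.92, and 9.71 against 3.69. Pcx carried the most peaks, with 25 of RXRα under each diet, and Pygl carried the fewest RARα peaks, with 3 and 4. Ppargc1a was sparse over its whole window, with 2.36 RXRα peaks per 100 kb under the control diet and 0.525 RARβ peaks. Its 662 kb span includes the 548 kb between its outer and inner starts, and the density around the inner start was not counted apart.

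**Figure D1:**
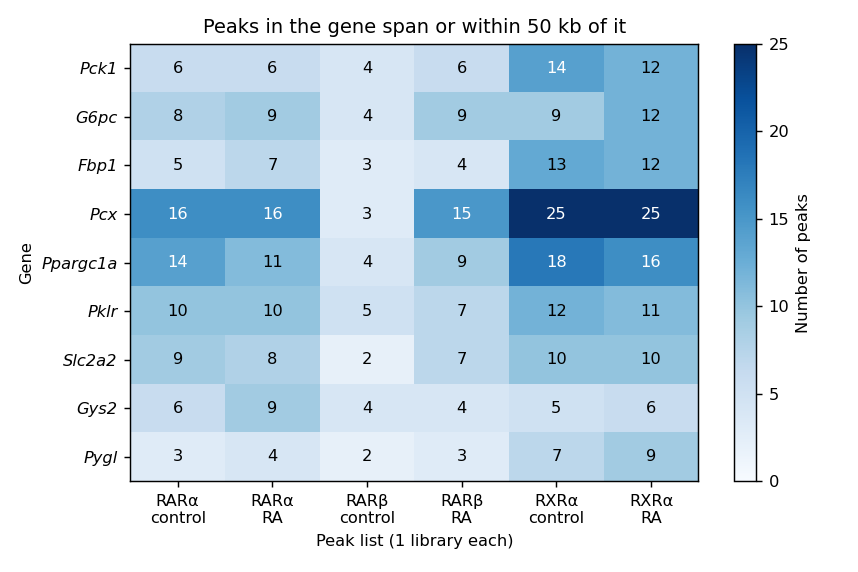
Number of peaks of each receptor and diet (columns, 1 library each) whose midpoint lay in the span of each of the 9 genes (rows) or within 50 kb of it, printed in each cell and shaded from 0 upward. RXRα gives the highest counts for most genes, with 25 at Pcx under each diet, and the RARβ column sums to 31 peaks under the control diet and 64 under RA, or 31 and 38 when all lists are cut to 14968 peaks.

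When peaks that touch each other were merged, the windows held 152 regions. Of these, 15 were called in all 6 lists, 35 in a single list, 46 for RXRα alone and 24 for a RAR without RXRα. The windows are wide and hold other genes: the nearest protein-coding start was that of the gene itself for 93 of the 152. Of the regions in Ppargc1a's window 23 of 23 were nearest to its own starts, against 3 of 17 for Pklr, which lies in a gene-dense stretch. Under the control diet, 33 of 77 RARα peaks, 8 of 31 RARβ peaks and 47 of 113 RXRα peaks lay in the gene body. Under RA the counts were 34 of 80, 32 of 64 and 48 of 113. The corresponding shares in the whole lists were not counted, either for merged regions or for gene bodies. Whether the region counts, or the gene-body counts under either diet, are particular to these genes was therefore not tested.

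**Figure D2:**
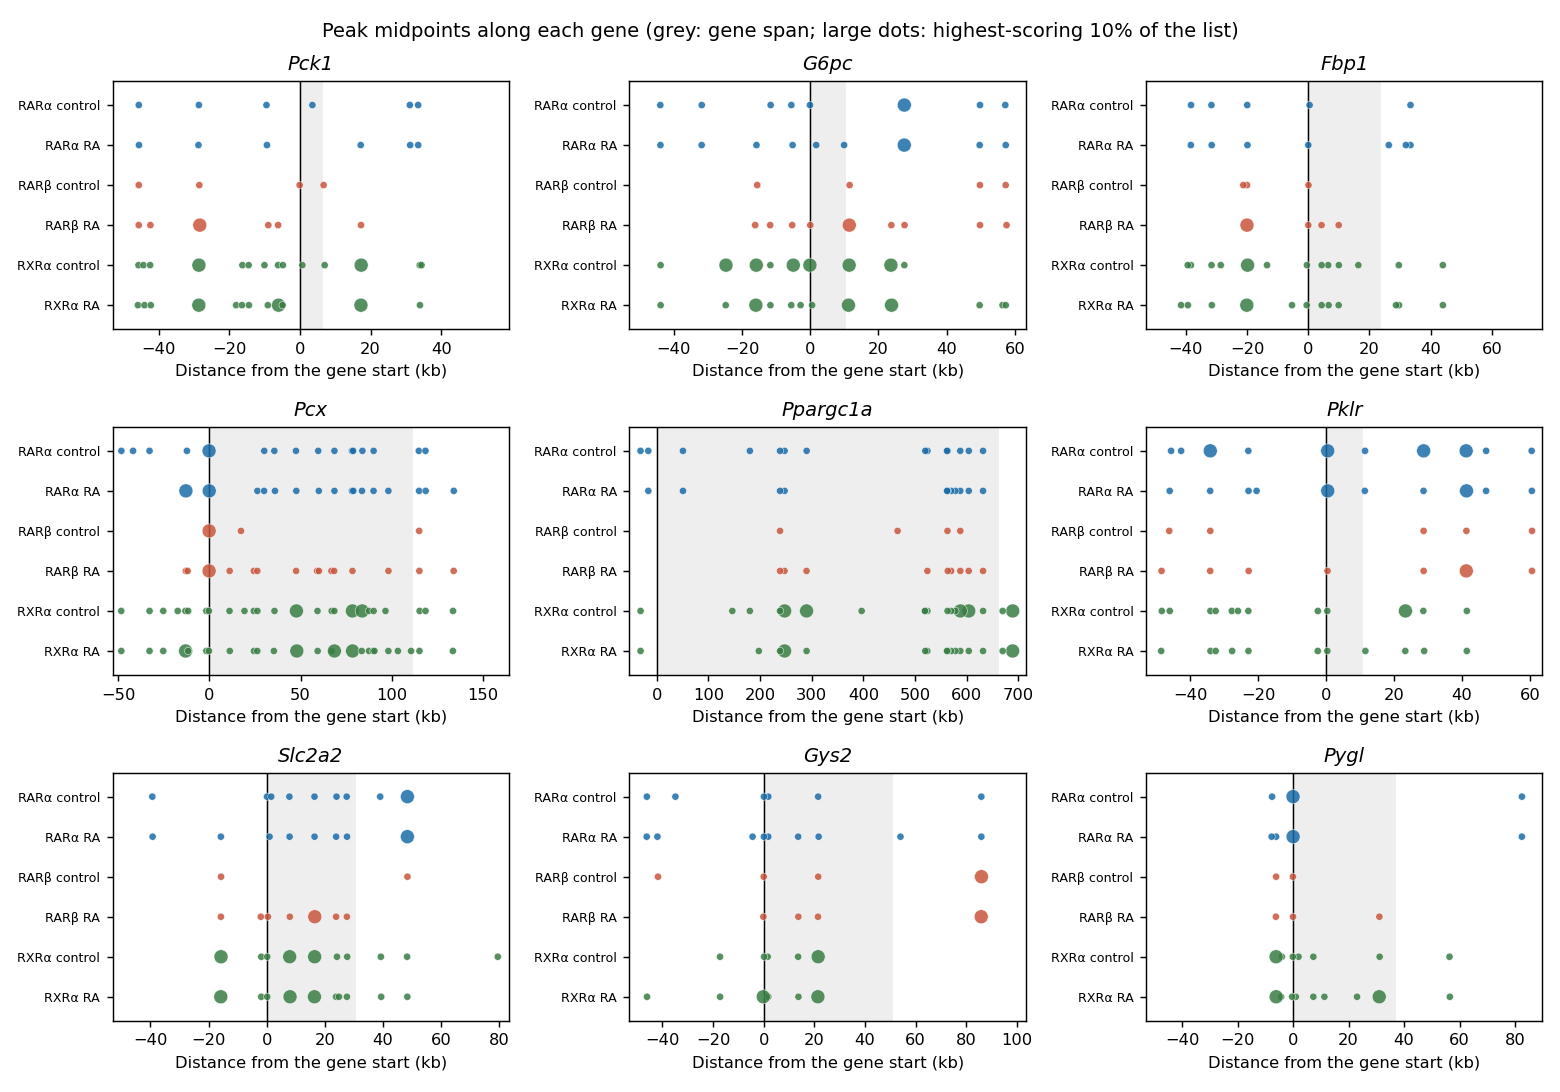
Peak midpoints of the 6 lists (rows of dots, coloured by receptor) along each gene, with the distance from the gene start in kb on the horizontal axis, the gene span in grey and the start as a vertical line. Large dots are peaks in the highest-scoring 10% of their list; for RXRα they lie mostly away from the starts, with 3 of 23 under the control diet and 1 of 20 under RA within 1 kb of a start.

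Seen across the starts, the receptors differed in where their highest-ranked peaks lay. Of the peaks in the highest 10% of a list, 6 of 8 of RARα, 2 of 2 of RARβ and 3 of 23 of RXRα lay within 1 kb of a protein-coding start under the control diet, and 4 of 7, 3 of 7 and 1 of 20 under RA. The corresponding shares of the whole lists were 74.3%, 69.9% and 8.87% in the control libraries and 57.0%, 51.2% and 8.81% in the RA libraries. In the members as in the whole lists, the RXRα share was the lowest under either diet. A RARα peak within 1 kb of a start of the gene itself was called at 7 of the 9 genes under the control diet and 6 under RA, beside 49.9% and 50% of all genes. For RARβ the numbers were 5 and 7, beside 35.9% and 43.7%, and for RXRα 8 and 7, beside 43.6% and 45.5%.

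Peaks of high rank were common around these genes for RXRα. All 9 genes had an RXRα peak of the highest 10% in the window under the control diet, beside 34.3% of all genes, and 8 had one under RA, beside 33.0%; Pklr was the exception. For RARα, 5 genes had such a peak under either diet, beside 36.2% and 40.2%. For RARβ the count was 2 under the control diet, beside 18.4%, and 7 under RA, beside 29.1%, and with the highest 5% in place of 10% it was 0 and 4. At Pck1, Pklr and Gys2 the nearest start to this RARβ peak under RA was that of a neighbour (Ctcfl, Scamp3 and Golt1b). The highest 10% also holds more RARβ peaks under RA, because that list has 29467 peaks against 14968 under the control diet. The windows of these genes hold more peaks than the typical window, which bears on each of these counts and was not tested.

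**Figure D3:**
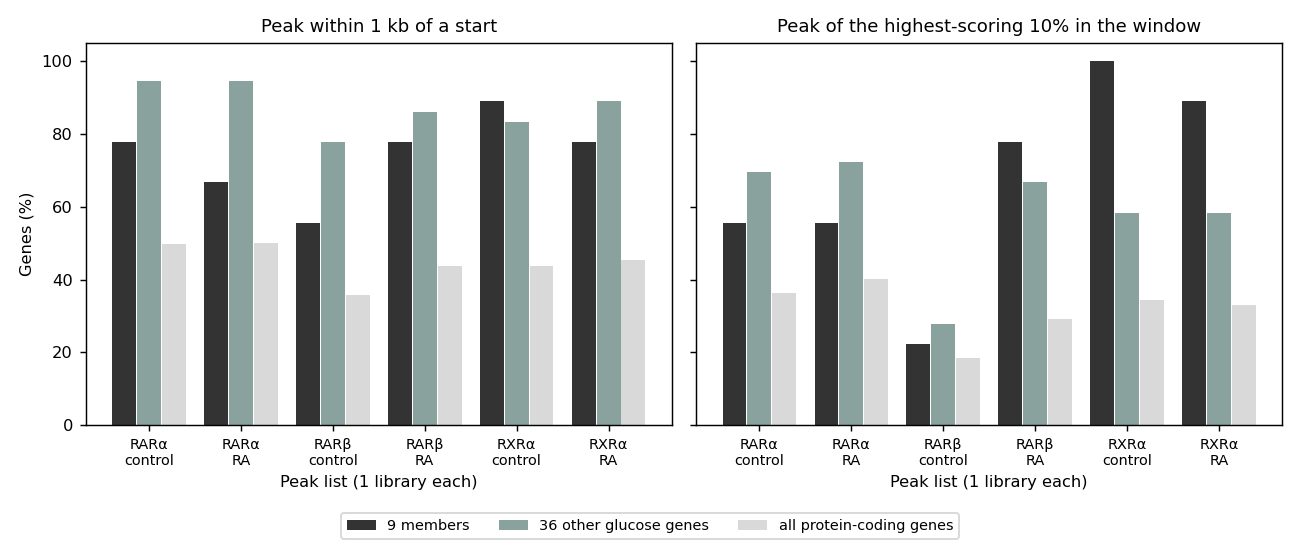
Percentage of genes (bars, from 0) with a peak within 1 kb of a start (left) and with a peak of the highest-scoring 10% of the list in the gene span or within 50 kb (right), for the 9 genes, 36 other glucose genes and all 21536 protein-coding genes, by peak list. On the right, the RXRα bars of the 9 genes reach 9 of 9 and 8 of 9, against 34.3% and 33.0% of all genes.

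Pck1 (chr2:173153073-173159274, GRCm38, plus strand) encodes phosphoenolpyruvate carboxykinase, which turns oxaloacetate into phosphoenolpyruvate and is a classic control point of gluconeogenesis. Its strongest binding lay far upstream. A region 28.4 to 28.7 kb upstream of the start (chr2:173123704-173125534) was called in all 6 lists and held the highest RXRα and RARβ peaks of the window under both diets. The RXRα peak there scored 1328 under the control diet (rank 200 of 61128, 0.327%) and 1859 under RA (rank 47 of 59624, 0.0788%). The RARβ peak scored 157 under the control diet (13.4% of its list) and 571 under RA (0.899%). The RARα peak scored 108 (51.7%) and 220 (25.2%). All 3 receptors were thus nearer the top of their list under RA. The nearest start to this region is that of Ctcfl, 5.09 kb away, so its assignment to Pck1 rests on the 50 kb window.

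A RARβ peak was called under RA 6.18 kb upstream of Pck1, with a score of 212 (12.5%), where no RARβ peak was called under the control diet. RXRα was called there under both diets, with 464 (11.0%) and 719 (4.35%). Another RXRα peak lay downstream, 17.3 kb from the start, with 918 (1.80%) under the control diet and 917 (2.11%) under RA. The start of Pck1 differed from the distal regions in that peaks were called there in the control lists only. An RXRα peak of 3678 bp covered it under the control diet with a score of 322 (20.6%), and an RXRα peak of 377 (15.9%) lay 6.99 kb from the start, just past the gene's end; neither overlapped an RXRα peak under RA. RARβ had a peak near its lower limit at the start under the control diet, with 52.7 (91.1%), and a RARα peak of 8504 bp with a score of 61.6 (84.6%) spanned the gene. Under RA no receptor had a peak within 1 kb of the Pck1 start, and the nearest RXRα peak was 4.92 kb upstream. The highest RARα peaks of the window lay elsewhere, 45.6 kb upstream under the control diet (260, 17.5%), in another region called in all 6 lists, and 33.5 kb downstream of the start under RA (237, 22.7%).

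G6pc (chr11:101367716-101377903, plus strand) encodes the catalytic subunit of glucose-6-phosphatase, which releases free glucose in the final step of both gluconeogenesis and glycogen breakdown. The highest RXRα peaks of its window lay just past its 3′ end, 11.4 kb from the start under the control diet (916, 1.81%) and 11.2 kb under RA (988, 1.63%). RARβ was called at the same place with 103 (30.5%) under the control diet and 383 (2.40%) under RA. A RARα peak of 4292 bp overlapped this region under RA with 231 (23.5%), and no RARα peak overlapped it under the control diet. The rank of RXRα there was thus nearly the same between diets, while that of RARβ was nearer the top under RA.

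At the G6pc start, RXRα had its highest-ranked start peak of the 9 genes under the control diet, with 899.98 (1.92%), over the window that holds the TGACCT half-site printed above. Under RA the RXRα peak at the start was 2368 bp wide and scored 286 (24.9%). RARα scored 105.1 (53.2%) under the control diet and 202 (28.4%) under RA, where its peak was 4624 bp wide and its midpoint fell 1.76 kb inside the gene, so that it covers the start without counting as within 1 kb of it. A RARβ peak at the start was called only in the RA list, with 102 (48.4%). At the G6pc start RXRα was therefore further from the top of its list under RA, and RARα nearer to the top of its own. Another RXRα region about 5 kb upstream scored 757 (3.33%) and 424 (14.1%), and one 24.7 kb upstream scored 619 (5.77%) under the control diet and 81.6 (75.5%) under RA. One at 15.8 kb upstream scored 717 (3.85%) and 798 (3.30%), and RARβ was called there with 61.9 (69.5%) and 166 (21.9%). The highest RARα peaks of the window were 27.6 kb from the G6pc start, where the nearest start was that of Aarsd1, 22.1 kb away, with 458 (4.48%) and 493 (3.62%).

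Fbp1 (chr13:62864753-62888298, minus strand) encodes fructose-1,6-bisphosphatase, which carries out the step of gluconeogenesis opposite to phosphofructokinase. Its leading region, 19.8 to 20.1 kb upstream (chr13:62907608-62908920), was called in all 6 lists and was the highest-ranked region of the window in each of them. RXRα scored 1389 (0.255%) under the control diet and 1649 (0.143%) under RA. RARβ scored 148 (15.1%) and 507 (1.21%), and RARα scored 272 (16.2%) and 328 (12.2%). No protein-coding start was nearer to this region than that of Fbp1. The region shared its order of ranks with the distal Pck1 region under either diet: RXRα first, then RARβ, then RARα. This order is not particular to the pair. Under RA it was also found at the regions with the highest RXRα peak of the G6pc, Pcx, Slc2a2, Gys2 and Pygl windows.

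The Fbp1 start was also called in all 6 lists, at lower ranks. RARα scored 186 (28.7%) and 319 (13.03%), and RXRα scored 210 (34.5%) and 354 (18.6%). RARβ scored 77.6 (48.7%) under the control diet and 66.6 (76.8%) under RA, so its rank was further from the top under RA. Inside the gene, RXRα was called 4.37 kb from the start with 483 (10.2%) and 193 (38.6%). The window also holds the start of the muscle paralog Fbp2, where RXRα scored 241 and 236. No RARβ peak with a score of at least 100 was particular to either diet at Fbp1.

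Pcx (chr19:4510472-4621752, plus strand) encodes pyruvate carboxylase, the mitochondrial enzyme that feeds pyruvate into gluconeogenesis. Its first start was called in all 6 lists and ranked higher for the RARs than for RXRα. RARα scored 463 (4.36%) and 547 (2.39%), and RARβ scored 184 (9.45%) and 278 (6.00%). RXRα scored only 107 (61.7%) and 196 (38.0%) there. At the inner start, 83.8 kb further on, the order was the opposite: RXRα scored 496 (9.62%) and 467 (11.8%), RARα scored 55.9 (91.7%) and 73.3 (77.3%), and no RARβ peak was called within 1 kb of it.

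Between both starts, 4 regions in the gene body were called for RXRα and RARα under both diets and had a RARβ peak in the RA list only. The one 78.4 kb from the first start, which lies 5.45 kb before the inner start, held the highest RXRα peaks of the window, with 704 (4.07%) and 824 (3.02%), and RARβ scored 176 (19.2%) under RA. Others lay 47.5 and 68.4 kb from the first start, with RARβ scores of 174 (19.7%) and 159 (23.9%) under RA, and the weakest lay 59.3 kb from it, with a RARβ score of 88.9. A further RARβ peak particular to the RA list, with 166 (21.8%), lay 1.01 kb from the start of the neighbour 2010003K11Rik. A region 115 kb from the Pcx start, called in all 6 lists, lay at the start of Rce1.

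Ppargc1a (chr5:51454249-52115853, minus strand) encodes the coactivator PGC-1α, which raises transcription of the gluconeogenic genes in fasting. It was the only one of the 9 genes with no peak within 1 kb of a start used here in any list. The starts used were its outer start and an inner start 548 kb further on. Peaks at any other start of the gene were not looked for. Most of its regions lay inside the span. Regions 239, 563 and 588 kb from the outer start were called in all 6 lists; the second is 15.1 kb past the inner start. At 588 kb, RXRα scored 539 (8.10%) under the control diet and 422 (14.2%) under RA. At 604 kb, RXRα scored 580.5 (6.82%) and 437 (13.3%), RARα scored 94.1 (58.8%) and 195 (29.7%), and RARβ was called only in the RA list, with 158 (24.1%).

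The highest RXRα peak of the Ppargc1a window lay past its 3′ end, 689 kb from the outer start, with 691 (4.31%) and 650.1 (5.68%), without a RAR peak. The highest RARα peak lay 50.6 to 50.7 kb from the outer start, with 332 (10.8%) and 353 (10.2%). At 247 to 248 kb, RXRα scored 563 (7.36%) and 598 (6.997%), and RARβ was called only under RA, with 151 (26.6%). RARβ never reached the highest 10% of its list at Ppargc1a, and its highest peak under the control diet scored 78.6 (47.6%). The peaks nearest to the outer start were RARα peaks 16.5 kb upstream under the control diet and 16.4 kb under RA.

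Pklr (chr3:89136122-89146815, plus strand) encodes the liver and red-cell pyruvate kinase, which catalyses the last step of glycolysis. The gene has an outer start for the erythroid form and an inner start, 0.501 kb further on, for the liver form. Peaks of all 3 receptors covered the inner start, with midpoints 0.355 to 0.477 kb from the outer start. RARα scored 432 (5.40%) under the control diet and 567 (1.99%) under RA. RXRα scored 378 (15.9%) and 237 (31.1%), and RARβ was called only under RA, with 100.09 (49.6%). RARα was thus nearer the top of its list under RA and RXRα further from it. RARα had the highest rank of the 3 receptors at this start, whose sequence printed above held no half-site spelling. A further promoter entry has its start 20 bases past the outer start. Its window held TGAACT and TGACCT, 221 and 151 bases before that further start, and lay in part under the RXRα and RARβ peaks of the RA lists.

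The remaining strong peaks of the Pklr window belonged to neighbours. Regions called in all 6 lists lay at the starts of Fdps, Gm45927 and Scamp3, with RARα scores of 435, 552 and 433 under the control diet. The highest RXRα peaks lay beside Hcn3, with 512 (8.999%) under the control diet and 261 (27.9%) under RA. Pklr itself therefore had no RXRα peak in the highest 10% under RA.

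Slc2a2 (chr3:28697903-28728361, plus strand) encodes the transporter GLUT2, which moves glucose across the hepatocyte membrane in both directions. RXRα ranked ahead of the RARs at most regions of the window, and the 3 with its highest-ranked peaks are given first. Inside the gene, 16.4 to 16.6 kb from the start, RXRα scored 1364 (0.288%) under the control diet and 1141 (0.947%) under RA. RARα scored 102 (54.5%) and 86.7 (67.7%) there, and RARβ was called only under RA, with 256 (7.52%). At 7.83 to 8.04 kb, RXRα scored 638 (5.31%) and 1138 (0.959%), and RARβ was again called only under RA, with 195 (15.2%). Upstream, 15.7 to 15.8 kb from the start, RXRα scored 862 (2.19%) and 815 (3.13%), and RARβ was called under both diets with 106 (28.6%) and 229 (10.1%).

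Slc2a2 had 5 RARβ peaks of at least 100 that overlapped no RARβ control peak, the most of the 9 genes. Besides the pair inside the gene just given, they lay at the start (102, 48.0%), 2.02 kb upstream (103, 47.7%) and 27.6 kb inside the gene (109, 44.6%). The start was otherwise moderately ranked: RXRα scored 283 (24.6%) and 318 (21.6%), and RARα scored 83.3 (65.4%) and 237 (22.6%). The highest RARα peak of the window lay 48.4 kb from the start, past the gene's end, with 547 (2.39%) and 903 (0.289%). There RXRα scored 78.0 (76.7%) and 254 (28.7%). The nearest start was that of Eif5a2, 34.7 kb away.

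Gys2 (chr6:142422612-142473130, minus strand) encodes the liver glycogen synthase, which lengthens glycogen chains. Its start was called in all 6 lists with every receptor nearer the top under RA. RXRα scored 472 (10.6%) and 644 (5.84%), RARβ scored 72.8 (53.9%) and 190.5 (16.2%), and RARα scored 111 (50.5%) and 186 (31.7%). A region in the gene body 21.4 to 21.7 kb from the start was also called in all 6 lists and held the highest RXRα peaks, with 824 (2.54%) and 786 (3.44%). RARβ scored 73.6 (52.9%) and 191 (16.003%) there. Gys2 was thus bound at the start and in the body by the same 3 receptors under both diets. No peak with a score of at least 100 in its window was particular to 1 diet for any receptor. The highest RARβ peaks of the window, 213 (7.03%) and 458 (1.54%), lay at the neighbouring starts of Golt1b and Recql, without RXRα.

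Pygl (chr12:70190815-70227683, minus strand) encodes the liver glycogen phosphorylase, which splits glucose units from glycogen. Its start carried the highest-ranked RARα promoter peak of the 9 genes. RARα scored 704 under the control diet (rank 284 of 35521, 0.7995%) and 720.45 under RA (rank 308 of 44296, 0.695%), over the window with the TGACCT half-site printed above. RXRα scored 114 (59.0%) and 159 (46.1%) there, and RARβ scored 62.2 (69.0%) and 103 (47.9%). RXRα ranked ahead of the RARs at a pair of other regions that were also called for a RAR. Of the 12 regions of the window, 7 were called for RXRα alone. A region 7.67 kb upstream held RARα peaks alone, with 132 and 176. At 6.12 to 6.23 kb upstream, RXRα scored 550.3 (7.75%) and 895 (2.31%), RARβ scored 50.6 (97.9%) and 205 (13.5%), and RARα was called only under RA, with 71.9 (78.5%). Inside the gene at 31.0 to 31.2 kb, RXRα scored 237 (30.3%) and 718 (4.36%), RARβ was called only under RA with 180 (18.4%), and RARα was not called.

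**Figure D4:**
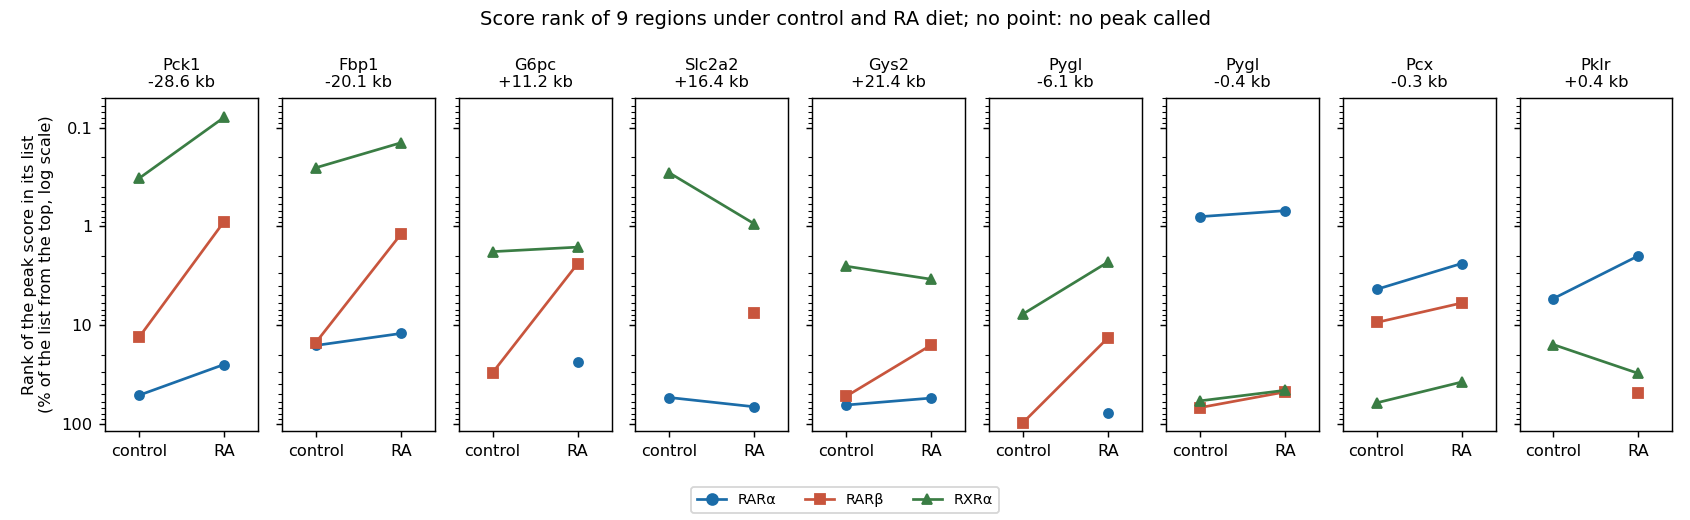
Rank of the highest peak of each receptor in 9 regions, as the percentage of its own list from the top (log scale, top of the list upward), under the control and RA diets; titles give the offset of the RXRα peak under RA from the gene start in kb, a missing point is a list without a peak, and the regions were picked after their values were seen. At the 6 distal regions on the left RXRα stands highest. RARβ is nearer the top under RA there, with 13.4% and 0.899% at Pck1, except at Slc2a2, where it has no control peak. At the drawn starts of Pygl, Pcx (first start) and Pklr RARα stands highest. Among starts not drawn, RARα ranked ahead of RXRα at Fbp1. The order was the opposite at G6pc, Slc2a2 and Gys2 under both diets, with RXRα at 10.6% and RARα at 50.5% at Gys2 under the control diet.

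A comparison of diets over all member peaks was made by overlap. With at least 25% of the width of each peak shared, 22 of 31 RARβ control peaks lay on a RARβ peak of the RA list, or 71.0% (Wilson 95% interval 53.4% to 83.9%), while 22 of 64 RARβ peaks of the RA list lay on a control peak, or 34.4% (23.9% to 46.6%). The whole lists gave 75.8% and 38.2%. For RARα 62 of 77 control peaks were shared, or 80.5% (70.3% to 87.8%), beside 84.2% in the whole list, and for RXRα 93 of 113, or 82.3% (74.2% to 88.2%), beside 78.7%. The intervals cover counting error only and treat peaks of the same window as independent. The whole-list shares lay inside each of these intervals.

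Peaks particular to 1 diet were then counted, as those scoring 100 or more that shared no base with the other diet's list. A RARβ peak of this kind under RA was present at 7 of the 9 genes, 18 peaks in all, beside 37.9% of all genes; Fbp1 and Gys2 had none. In 16 of the 18 the nearest start was that of the gene itself. None of the 9 genes had a RARβ peak of this kind under the control diet, beside 2.31%. For RARα, 4 genes had an RA-only peak, beside 22.6%, and 2 had a control-only peak, beside 5.50%. For RXRα, 4 genes had an RA-only peak, beside 19.4%, and 5 had a control-only peak, beside 21.6%, among them the peak over the Pck1 start. The RARα and RXRα counts moved with the limits used: RARα RA-only peaks were at 8 genes with the score limit on both lists, 7 with equal lists, 2 with the nearest start and 1 within 10 kb of a start, and RXRα RA-only peaks were at 8 with the score limit and 2 within 10 kb. Control-only RARα peaks were at 5 genes with equal lists, 1 with the nearest start and 0 within 10 kb, and those of RXRα at 1 within 10 kb.

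Ranks were also compared between diets for the shared peaks. Of the 22 RARβ control peaks shared with the RA list, 16 were nearer the top of the RA list, or 72.7% (51.8% to 86.8%), beside 64.1% of all such peaks. The numbers were 36 of 62 for RARα, beside 62.5%, and 49 of 93 for RXRα, beside 51.2%. Because rank is a percentage of a list, weak peaks added to the longer RA lists of RARα and RARβ move a shared peak toward the top without any change of its own, and the counts cannot be told apart from the growth of those lists. These rank counts, and the overlaps in the next paragraph, were chosen after values had been seen.

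The RARβ peaks called only under RA lay mostly where RXRα was called in the control library. Of 41 RARβ peaks of the RA list without a RARβ control peak, 39 overlapped an RXRα control peak, or 95.1% (83.9% to 98.7%), beside 86.4% of all such peaks, and 24 overlapped a RARα control peak, or 58.5% (43.4% to 72.2%), beside 46.4%. Seen from the RXRα side, 8 of the 23 RXRα peaks of the highest 10% under the control diet were overlapped by RARβ, or 34.8% (18.8% to 55.1%), beside 40.3% of all such RXRα peaks. Under RA, 19 of 20 were, or 95% (76.4% to 99.1%), beside 93.3%. RARα overlapped 14 of 23 under the control diet, or 60.9% (40.8% to 77.8%), beside 66.4%, and 16 of 20 under RA, or 80% (58.4% to 91.9%), beside 83.9%. The background shares lay inside each of these intervals.

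Sharing between receptors was also counted within each diet. On the control diet 74.2% of 31 RARβ peaks (56.8% to 86.3%) lay on an RXRα peak, beside 77.8% of the list, and under RA 59 of 64 did, or 92.2% (83.0% to 96.6%), beside 89.9%. Of RARα peaks, 71.4% lay on an RXRα peak under the control diet and 66.3% under RA, beside 61.1% and 61.7%. Of the RXRα peaks, 48.7% (control) and 46.0% (RA) lay on a RARα peak, beside 36.03% and 45.5% of the whole lists, and 20.4% and 51.3% lay on a RARβ peak, beside 19.05% and 44.8%. The interval of the control share on RARα was 39.7% to 57.8%, above the whole-list value. Under RA, 49 of 80 RARα peaks lay on a RARβ peak, or 61.25% (50.3% to 71.2%), also above the 48.8% of the list. For the other shares between RARα and RARβ, the whole-list value lay inside the interval.

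A wider list of 36 genes of glycolysis, gluconeogenesis, glycogen and their control, such as Slc37a4, Gbe1 and Foxo1, was set beside the 9. In these 36, a peak within 1 kb of a start was called at 34 genes for RARα under either diet, at 28 and 31 for RARβ, and at 30 and 32 for RXRα. A peak of the highest 10% was in the window of 25 and 26 genes for RARα, 10 and 24 for RARβ, and 21 and 21 for RXRα. As for the 9 genes, RARβ was the receptor whose count in the highest 10% changed most between diets. The same held over all genes, where the RARβ share was 18.4% under the control diet and 29.1% under RA. The corresponding shares were 36.2% and 40.2% for RARα and 34.3% and 33.0% for RXRα. RA-only peaks of at least 100 were found at 13 of the 36 genes for RARα, 18 for RARβ and 9 for RXRα, and control-only peaks at 1, 1 and 12. The 9 genes and the 36 differed in the receptor with the most genes in the highest 10%, RXRα in the former and RARα in the latter, which was not tested.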

How the data were processed

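Liver chromatin of mice on a control or RA diet was immunoprecipitated for RARα, RARβ or RXRα and sequenced as single-end reads of 35 bp (1 library per receptor and diet, and 1 input). Base calls came from CASAVA 1.4 per the labels. Alignment to mm10 (Bowtie) and peak calling per library (MACS) were done by the authors. The deposited score is the caller's value per peak, -10 times log10 of its p-value, and the authors did not normalize it between libraries. The other deposited values used were the peak start and end. Read totals are not in the lists, so depth is unknown. From 56 to 169 peaks per list passed a chromosome end of NCBIM37, so the lists are on GRCm38. Gene spans came from a RefSeq table of GRCm38.p6, which gave 21887 protein-coding genes, and strands from the RefSeq promoter table (17492 genes) or, by symbol, GENCODE M1 (4044 genes). A gene's starts are the outer end of its span and its promoter table starts.

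Peak midpoints were assigned to genes in Python 3.11.15 with pandas 2.3.3 and scipy 1.17.1. Peaks were called shared at 25% of the width of each, and diet-particular at a score of at least 100 without a shared base. With 1 library per group no test was run. Shares have Wilson 95% intervals. For every member and list the highest peak, the peak nearest the start, diet-particular peaks and regions in all 6 lists were examined. Members, gene lists and measures were chosen with earlier results of these data known. Alternatives were another window (10 kb), distance to the start (5 kb), score minimum, equal list length, gene assignment, overlap, rank limit and half-site letters. The overlap counting was tested on simulated data. Exons, introns and peak sequences were not analysed here. One gene among the 4 highest-ranked of the other glucose genes is not reported here.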

Additional observations from a re-analysis of the deposited data

Results flagged for a closer look

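The change between diets in the number of the 9 genes with a peak differed in sign between receptors, and with 1 library per group the difference was not tested. For a peak within 1 kb of a start, the number under RA minus that under the control diet was 2 with RARβ, and -1 with each of RARα and RXRα. The RARα loss was G6pc, whose RARα peak under RA covers the start with a midpoint further inside the gene. The RXRα loss was Pck1. Among all genes, the share with a start peak moved from 35.9% to 43.7% for RARβ and from 43.6% to 45.5% for RXRα. For RARα this share stayed near 49.9%. The RARβ change in the 9 genes thus had the same direction as among all genes. The RXRα change, of 1 gene, had the opposite direction. For a peak of the highest-scoring 10% in the window, the difference was 5 with RARβ, 0 with RARα and -1 with RXRα, where Pklr was lost. Over all genes, the share with a RARβ peak of this kind moved from 18.4% to 29.1%, and that for RXRα from 34.3% to 33.0%.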

How the results depend on the processing

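Of 130 values recomputed under the alternatives, 45 moved beyond 1.5 times (counts) or outside the interval of the main value (shares) and 85 did not. In the order RARα, RARβ and RXRα, each under control and then RA, keeping peaks within 10 kb of a start left 18, 19, 7, 16, 28 and 30 peaks, 5 genes with a RARβ control peak, RA-only peaks at 1 (RARα) and 2 (RXRα) genes and control-only peaks at 0 and 1. A score of at least 100 left 40 and 48 RARα and 11 and 38 RARβ peaks, 1 gene with RARβ at its start under control, and RA-only peaks at 8 (RARα) and 8 (RXRα) genes. It gave shares of 100% of RARβ control peaks in the RA list, 81.8% in RARα and 54.5% in RXRα, 78.9% of RARβ RA peaks in RXRα, and 47.5% and 52.1% of RARα peaks in RXRα. Equal lists of 14968 peaks left 26 and 30 RARα, 38 RARβ RA, and 42 and 39 RXRα peaks, start peaks at 4 (RARα) and 5 (RXRα) genes under control, and RARα RA-only and control-only peaks at 7 and 5 genes. Only peaks nearest the gene's own start numbered 48 and 49 for RARα and 18 for RARβ under control, with RARα one-diet peaks at 2 (RA) and 1 (control) genes. The highest 5% instead of 10% left RARβ at 0 and 4 genes. An overlap of 50% gave 55.8% and 51.2% of RARα and 51.6% and 79.7% of RARβ peaks in RXRα. The 4 half-sites raised matching promoters from 4 to 7. For values that moved under a window, score or length limit, fewer peaks enter by construction. Any shared base, 25% overlap for presence in the other diet, and 5 kb moved none beyond these limits, though 25% overlap took RXRα RA-only genes from 4 to 6. No paired analysis was possible because each group has 1 library. Depth and animal-to-animal spread are unknown, and a wide peak's midpoint can fall outside 1 kb of a start it covers.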

Other observations

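Among the 36 other glucose genes, each had a peak in at least 1 list, and those with the highest-ranked peaks included Ppp1r3c, G6pc3 and Mpc2. Ppp1r3c, a subunit that brings protein phosphatase 1 to glycogen, had its highest RARα control peak at its own start (840.45, 0.360% of the list). The window of G6pc3, the ubiquitous glucose-6-phosphatase, held an RXRα peak under RA of 1821 (0.0889%) whose nearest start was that of Hdac5. That of Mpc2, a subunit of the mitochondrial pyruvate carrier, held one of 1484 (0.258%) whose nearest start was that of Adcy10.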
